A study of Mus musculus with 75 samples.

Results

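Of the 45706 gene entries in the count tables, 32 belong to glycolysis and the response to low oxygen, and they were taken by symbol. They are 2 glucose transporters, the enzymes that turn glucose into lactate with their regulators, 2 lactate transporters, and 8 genes of the hypoxia pathway led by Hif1a. All 32 had reads in every library and passed the filter on low counts, with 13665 genes tested in all. The cells were p53-/-crel-/-rela-/- mouse embryonic fibroblasts of strain C57BL/6, labelled as primary, so that every group lacks p53, c-Rel and the cells' own RelA, the transactivating NF-κB subunit. They carried a pBABE-puro retroviral vector that was empty (EV) or held RelA-dTAD, RelA-dTA1 or wild-type RelA (RelA-WT). These 4 constructs had 2 libraries at each time, 1 in each of 2 count tables, called set 1 and set 2. A further 7 RelA mutants had 1 library at each time. Of these, set 1 held RelA-dCterm and RelA-DB. Set 2 held 3 mutants with TA2 changes alone, namely RelA-TA2_S467A, the mutant RelA-TA2_CI and the mutant RelA-TA2_CI_S467A, and 2 that add dTA1, written RelA-TA2_CI_S467A-dTA1 and, without S467A, RelA-TA2_CI-dTA1. Cells were held overnight in 0.5% serum and then given TNF at 10 ng/ml for 0, 0.5, 1, 3 or 8 h. Cells kept in low serum without TNF for the later times are not among the groups, so that TNF and time in culture cannot be told apart. The labels do not say that the 2 libraries of a group came from separate cultures.

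Glycolysis splits glucose into pyruvate, which is turned into lactate and exported when oxygen is scarce or growth is fast. Hexokinase traps glucose inside the cell, phosphofructokinase commits it to the pathway, and the PFKFB enzymes set the level of the sugar phosphate that activates phosphofructokinase. HIF-1α, encoded by Hif1a, is made all the time and marked for destruction by the oxygen-dependent prolyl hydroxylases of the Egln genes; when it is stable it raises transcription of glucose transporters, glycolytic enzymes, Vegfa and Egln3. Hif1a is also known as a transcriptional target of NF-κB.

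The libraries held between 4422396 and 6915919 reads in set 1 and between 10440202 and 22908738 in set 2. Values are CPM, the reads of a gene scaled to a common library size with TMM factors. Rela itself was at 16.7 and 15.6 CPM in EV cells at 0 h. It was at 1121 and 1795 CPM in RelA-dTAD, 846 and 1451 CPM in RelA-dTA1 and 1149 and 1473 CPM in RelA-WT cells. At 8 h it was at 3882 and 6654 CPM in RelA-dTAD and at 1482 and 1772 CPM in RelA-WT cells. The part of these levels in the results was not tested. In such bulk RNA, fewer cells with a transcript and less of it in each cell cannot be told apart. The 10 fibroblast markers summed to between 36950 and 57720 CPM in every library. They compare with at most 8.28 CPM for 5 macrophage and 13.45 CPM for 4 epithelial markers; Ptprc stayed at or below 0.381 CPM. Other lists were higher through a few genes. The 4 neural markers summed to between 168.5 and 789.8 CPM, mostly Map2 and Nes. The 4 endothelial markers summed to between 30.2 and 59.6 CPM, through Kdr and Tek, with Pecam1 and Cdh5 under 1 CPM. The part of such cells in the results was not tested. The sets differed for several members: averaged over 20 pairs of libraries, set 2 was above set 1 by 0.99 for Slc16a3, 0.95 for Ldha and 0.87 for Bnip3 on the log2 scale, and below it by 0.51 for Ndrg1.

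Before TNF, levels per kilobase of transcript ran over a wide range. In RelA-WT cells at 0 h the pyruvate kinase gene Pkm was highest, at 369.9 RPKM (CPM per kilobase of transcript, mean of 2 libraries), followed by the aldolase gene Aldoa at 182, the triosephosphate isomerase gene Tpi1 at 151 and the lactate dehydrogenase gene Ldha at 133 RPKM. Hif1a stood at 65.0 RPKM, Hk1 at 18.6 and Hk2 at 6.54 RPKM. Gapdh was the lowest, at 0.832 RPKM. That value is uncertain: 58.4% of the 50-base windows of its annotated transcripts recur exactly in transcripts of other genes, and how reads with several matches were counted is not given in the sources used here. The same share was 68.0% for Pgk1, 59.1% for Bnip3, 49.5% for Eno1 and 41.5% for Pgam1, whose levels are therefore uncertain too. It was 0 for Hk2, Egln3, Ddit4, Slc16a1 and Ero1l and 0.53% for Pfkfb3.

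No member differed between EV and RelA-WT cells at 0 h, where 0.563% of all genes did, and likewise none between RelA-dTAD and RelA-WT (0.0293% of all genes) or RelA-dTA1 and RelA-WT (0% of all genes). At an unadjusted p under 0.05 the 3 comparisons held 2, 1 and 0 members, and DESeq2 called none. Most members nonetheless lay below RelA-WT at 0 h: the difference was negative for 26 of the 32 in EV, 27 in RelA-dTAD and 26 in RelA-dTA1 cells, with medians of -0.17, -0.16 and -0.15 on the log2 scale, where the median of all genes lay between -0.013 and -0.001. These comparisons share the RelA-WT libraries, and the same 0 h libraries enter each difference of a response from RelA-WT given below. With the set as a block, Hif1a (-0.24 ± 0.06, log2 ± SE) and Pfkl (-0.36 ± 0.09) passed as lower in EV than in RelA-WT cells (adjusted p = 0.0207 for Hif1a and 0.0421 for Pfkl). The EV libraries had 312 and 343 CPM of Hif1a at 0 h, against 354 and 413 CPM in RelA-WT cells.

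A few of these genes changed at different times of the TNF course in different cells. In RelA-dTA1 cells and in RelA-WT cells the hexokinase gene Hk2, the phosphofructokinase activator gene Pfkfb3 and the prolyl hydroxylase gene Egln3 were up by 3 h. Without the set as a block, the response at 1 h differed from RelA-WT only for Hk2, in EV and RelA-dTAD cells. At 3 h it differed only for Egln3, in EV cells. In EV and RelA-dTAD cells most of the change came at 8 h, where the glucose transporter gene Slc2a1, Hk2 and the angiogenic factor gene Vegfa were highest. In all 4 constructs more members, and more of all genes, passed the tests at 8 h than at any earlier time. Tests were edgeR's quasi-likelihood test against 0 h of the same construct, with Benjamini-Hochberg adjustment over all genes and a threshold of 0.05. At 0.5 h no member passed in any of the 4 constructs, where 0.402% of all genes did in EV, 0.439% in RelA-dTAD, 0.629% in RelA-dTA1 and 0.812% in RelA-WT cells. In that order 0, 0, 0 and 1 members had an unadjusted p under 0.05 there, and DESeq2 called none. At 1 h no member passed in EV (0.827% of all genes) or RelA-dTAD cells (0.549%), with 2 members at an unadjusted p under 0.05 in each and none called by DESeq2. In RelA-dTA1 cells Hk2 alone rose at 1 h (1.62% of all genes changed), and in RelA-WT cells Hk2, Pfkfb3 and Egln3 rose, 9.38% of the members against 3.24% of all genes. At 3 h Hk2 alone rose in EV cells (3.12% of members, 3.94% of all genes). None passed in RelA-dTAD cells (2.91% of all genes; 4 members at an unadjusted p under 0.05, none by DESeq2). In RelA-dTA1 cells 5 rose and 1 fell at 3 h (18.8% of members, 14.4% of all genes), and in RelA-WT cells 5 rose and 2 fell (21.9% against 16.3%).

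At 8 h, 7 members rose and 5 fell in EV cells, 9 rose and 6 fell in RelA-dTAD, 9 rose and 4 fell in RelA-dTA1, and 7 rose and 3 fell in RelA-WT cells. Of all genes, 25.6% rose and 23.1% fell in EV, 24.4% rose and 22.5% fell in RelA-dTAD, 19.4% rose and 15.3% fell in RelA-dTA1, and 15.8% and 11.6% in RelA-WT cells. As a share of the 32 members this was 37.5% in EV, where 48.7% of all genes changed, 46.9% in RelA-dTAD (46.9% of all genes), 40.6% in RelA-dTA1 (34.6%) and 31.2% in RelA-WT (27.4%). In this fit the shares of members lay near those of all genes, or below them in EV cells. The members' median change at 8 h was 0.36 in EV, 0.37 in RelA-dTAD, 0.29 in RelA-dTA1 and 0.16 in RelA-WT on the log2 scale, and that of all genes lay between -0.032 and -0.015. Blocking by set raised the counts at 8 h to 19 higher and 6 lower in EV (62.6% of all genes changed in that fit), 19 higher and 6 lower in RelA-dTAD (63.4%), 17 higher and 4 lower in RelA-dTA1 (52.2%), and 12 and 6 in RelA-WT cells (44.8%). As a share of the members that was 78.1% in EV, 78.1% in RelA-dTAD, 65.6% in RelA-dTA1 and 56.2% in RelA-WT cells, so that with the block the share of members was above that of all genes in all 4 constructs, EV included. At 3 h the blocked counts were 6 higher and 3 lower in EV (16.2% of all genes), 4 higher and 1 lower in RelA-dTAD (12.4%), 8 higher and 4 lower in RelA-dTA1 (30.5%), and 8 and 6 in RelA-WT cells (30.9%). At 1 h they were 0 in EV (2.18% of all genes), 1 in RelA-dTAD (1.9%), 6 in RelA-dTA1 (4.68%) and 7 in RelA-WT cells (6.8%), all higher.

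The calls that only the block gave fell on the following members. At 0.5 h Vegfa rose in RelA-dTAD cells (0.929% of all genes). At 1 h Slc2a1 rose in RelA-dTAD cells, Pfkfb3, Pgk1, Eno2, Egln3 and Ndrg1 in RelA-dTA1 cells, and Eno2, Hif1a, Ddit4 and Ndrg1 in RelA-WT cells. At 3 h Pfkfb3, Slc16a1, Vegfa, Ero1l and Ndrg1 rose and Hk1, Pfkm and Pdk1 fell in EV cells. In RelA-dTAD cells Eno2, Vegfa, Egln3 and Ndrg1 rose and Pfkm fell at 3 h. In RelA-dTA1 cells Hif1a, Ero1l and Ndrg1 rose and Slc2a3, Pdk1 and Ddit4 fell, and in RelA-WT cells Pfkfb4, Eno2 and Ndrg1 rose and Slc2a1, Slc2a3, Bnip3 and Ddit4 fell. At 8 h Slc2a3, Pfkp, Aldoa, Pgk1, Pgam1, Eno1, Pkm, Ldha, Slc16a3, Egln1, Egln3 and Ndrg1 rose and Hk1 fell in EV cells. In RelA-dTAD cells Pfkl, Pfkp, Aldoa, Gapdh, Pgk1, Eno1, Pkm, Ldha, Slc16a3 and Ndrg1 rose at 8 h. In RelA-dTA1 cells Pfkl, Aldoa, Pgk1, Pgam1, Ldha, Slc16a3, Vegfa and Egln1 rose. In RelA-WT cells Hk1, Pfkl, Slc16a3, Vegfa and Ndrg1 rose and Slc2a3, Gpi1 and Pdk1 fell.

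**Figure D1:**
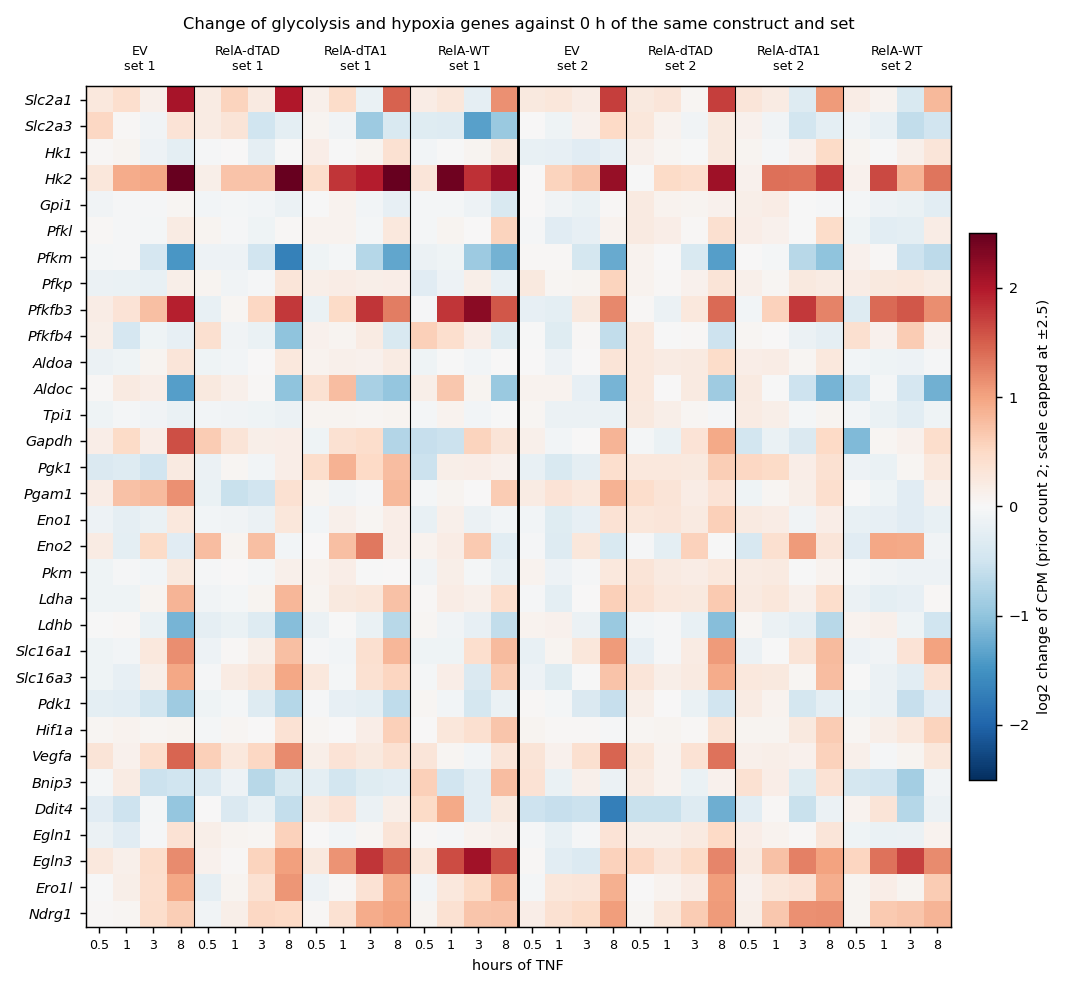
Log2 change of CPM (prior count 2) against 0 h of the same construct and set, for the 32 members in rows and each TNF time of EV, RelA-dTAD, RelA-dTA1 and RelA-WT in columns, with set 1 left and set 2 right. Hk2, Pfkfb3 and Egln3 are red from 1 or 3 h in RelA-dTA1 and RelA-WT, Slc2a1 and Vegfa are reddest at 8 h in EV and RelA-dTAD, and Pfkm and Ldhb are blue at 8 h in every panel.

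The promoters of the 5 genes that the results turn on are shown because they moved at different times, and because HIF and NF-κB both act by binding such stretches. Each runs 5′ to 3′ along the gene's strand from 250 bases before to 50 after an annotated start, taken from RefSeq on GRCm38.p6. Capitals mark ACGTG or GCGTG, the cores of the hypoxia response element, on either strand (CACGT and CACGC on the other), and, in Vegfa, the κB motif; matches may overlap, as ACGTG does with itself in CACGTG. Pfkfb3 and Vegfa have 2 annotated starts each in the table, and both are given. For Vegfa the window with the κB motif holds neither core, and the other window holds ACGTG and GCGTG and no κB motif.
Hk2, chr6:82774405-82774704, minus strand: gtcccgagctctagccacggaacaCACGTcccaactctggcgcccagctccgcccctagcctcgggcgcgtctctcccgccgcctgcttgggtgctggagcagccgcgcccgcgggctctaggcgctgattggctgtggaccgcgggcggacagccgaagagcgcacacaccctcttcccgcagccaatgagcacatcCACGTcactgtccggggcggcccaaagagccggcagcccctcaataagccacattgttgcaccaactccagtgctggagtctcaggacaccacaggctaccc
Pfkfb3, chr2:11553880-11554179, minus strand: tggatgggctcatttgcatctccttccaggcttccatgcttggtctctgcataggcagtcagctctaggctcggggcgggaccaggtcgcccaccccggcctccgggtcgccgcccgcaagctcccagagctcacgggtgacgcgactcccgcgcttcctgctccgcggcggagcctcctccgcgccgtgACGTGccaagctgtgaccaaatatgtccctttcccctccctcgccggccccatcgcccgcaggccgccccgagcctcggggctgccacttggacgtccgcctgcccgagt
Pfkfb3, chr2:11502041-11502340, minus strand: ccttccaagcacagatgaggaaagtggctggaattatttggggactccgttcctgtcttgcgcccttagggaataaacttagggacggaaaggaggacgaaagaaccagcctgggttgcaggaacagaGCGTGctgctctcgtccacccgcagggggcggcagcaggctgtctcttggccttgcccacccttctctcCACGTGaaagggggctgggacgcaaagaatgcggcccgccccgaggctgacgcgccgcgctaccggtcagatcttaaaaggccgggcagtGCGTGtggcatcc
Egln3, chr12:54203825-54204124, minus strand: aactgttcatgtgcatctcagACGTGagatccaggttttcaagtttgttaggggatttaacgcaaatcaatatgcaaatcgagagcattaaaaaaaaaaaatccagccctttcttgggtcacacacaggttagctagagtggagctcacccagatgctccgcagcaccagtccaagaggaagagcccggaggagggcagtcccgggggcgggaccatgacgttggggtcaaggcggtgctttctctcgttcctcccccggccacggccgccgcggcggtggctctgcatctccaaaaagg
Slc2a1, chr4:119108495-119108794, plus strand: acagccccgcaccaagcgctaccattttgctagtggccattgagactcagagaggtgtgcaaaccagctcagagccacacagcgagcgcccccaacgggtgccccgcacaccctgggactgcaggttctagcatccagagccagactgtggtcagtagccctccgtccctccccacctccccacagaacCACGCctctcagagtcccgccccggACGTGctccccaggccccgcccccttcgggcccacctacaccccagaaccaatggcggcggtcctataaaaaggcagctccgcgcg
Vegfa, chr17:46032328-46032627, minus strand: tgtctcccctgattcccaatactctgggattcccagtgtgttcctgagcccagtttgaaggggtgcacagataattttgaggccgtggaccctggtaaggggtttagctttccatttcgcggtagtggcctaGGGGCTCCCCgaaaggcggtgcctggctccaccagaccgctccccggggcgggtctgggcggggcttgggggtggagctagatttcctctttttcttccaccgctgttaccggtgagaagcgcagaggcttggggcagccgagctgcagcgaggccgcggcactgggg
Vegfa, chr17:46025114-46025413, minus strand: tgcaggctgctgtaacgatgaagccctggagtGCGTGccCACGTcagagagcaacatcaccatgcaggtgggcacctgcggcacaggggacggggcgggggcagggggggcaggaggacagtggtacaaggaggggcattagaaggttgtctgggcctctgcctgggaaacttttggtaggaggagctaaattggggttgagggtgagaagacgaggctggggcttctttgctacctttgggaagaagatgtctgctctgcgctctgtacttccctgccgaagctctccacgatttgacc

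The table held 43 promoters for 29 of the members, and none for Slc2a3, Ero1l and Ndrg1. ACGTG on either strand was in 23 of the 43 (53.5%), against 6447 of all 32851 promoters of the same length (19.6%), and 20 of the 29 genes had it in at least 1 promoter. GCGTG was in 24 (55.8%), against 32.4% of all promoters, and the κB motif in 4 (9.3%), against 8.46%. Positions are those of the leftmost base of a match as printed, ACGTG or, for the other strand, CACGT. In Hk2 they were -226 and -52 from the annotated start, both as CACGT. They were -36 in Slc2a1, -229 in Egln3 and, as CACGT, -211 in the other window of Vegfa. A match of letters does not show that a factor binds there, and the absence of a match in these windows does not bear on sites elsewhere.

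Hk2 and Slc2a1, of glucose phosphorylation and uptake, rose most among the members at 8 h in EV and RelA-dTAD cells. Hk2 encodes the inducible hexokinase. In EV cells it was at 27.4, 33.4, 52.0, 53.5 and 217 CPM at 0, 0.5, 1, 3 and 8 h in set 1 and at 36.4, 36.5, 53.55, 58.8 and 165 CPM in set 2. In RelA-dTAD cells it was at 31.1, 34.5, 50.8, 50.9 and 215 CPM in set 1 and at 42.3, 41.9, 58.8, 57.0 and 184 CPM in set 2. Both courses stayed at or below 58.8 CPM to 3 h and were highest at 8 h. In RelA-dTA1 cells Hk2 was at 27.3, 37.2, 94.2, 106.5 and 155 CPM in set 1 and at 38.9, 41.75, 101, 100.0 and 128.5 CPM in set 2. In RelA-WT cells it was at 29.5, 36.4, 160.2, 105 and 130.5 CPM in set 1 and at 48.5, 52.1, 154, 87.6 and 122.5 CPM in set 2. Both RelA-WT libraries peaked at 1 h, above all other libraries of that time, and both lay below all EV and RelA-dTAD libraries at 8 h. The rise at 1 h was 1.56 ± 0.21 in RelA-dTA1 (log2 ± SE, adjusted p = 2.88e-05) and 1.99 ± 0.21 in RelA-WT cells (3.86e-07), and 0.73 ± 0.21 in EV (0.175) and 0.57 ± 0.21 in RelA-dTAD cells (0.587). The 1 h response of EV was 1.27 ± 0.30 below that of RelA-WT (adjusted p = 0.0472), that of RelA-dTAD 1.43 ± 0.29 below it (0.0151) and that of RelA-dTA1 0.44 below it without passing the test.

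At 8 h the order turned round. Hk2 rose by 2.60 ± 0.22 in EV (adjusted p = 7.14e-10), 2.44 ± 0.21 in RelA-dTAD (2.1e-09), 2.08 ± 0.21 in RelA-dTA1 (5.26e-08) and 1.67 ± 0.21 in RelA-WT cells (1.81e-06). The 8 h response of EV was 0.93 ± 0.29 above that of RelA-WT (adjusted p = 0.0283), by 0.84 within each set. These differences rest on few libraries: without the set 1 libraries of EV the 8 h difference was 0.53 (adjusted p = 0.465) and without the set 2 libraries of RelA-WT 0.41 (0.553). The 1 h differences kept their sign but failed the test without either EV or RelA-dTAD replicate or without RelA-WT replicate 1 (-0.95 to -1.52, adjusted p between 0.0945 and 0.846). The rise of Hk2 in EV cells at 3 h (0.82 ± 0.21, adjusted p = 0.0284) failed it without either EV replicate (0.71, adjusted p = 0.557, and 0.98, 0.219).

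**Figure D2:**
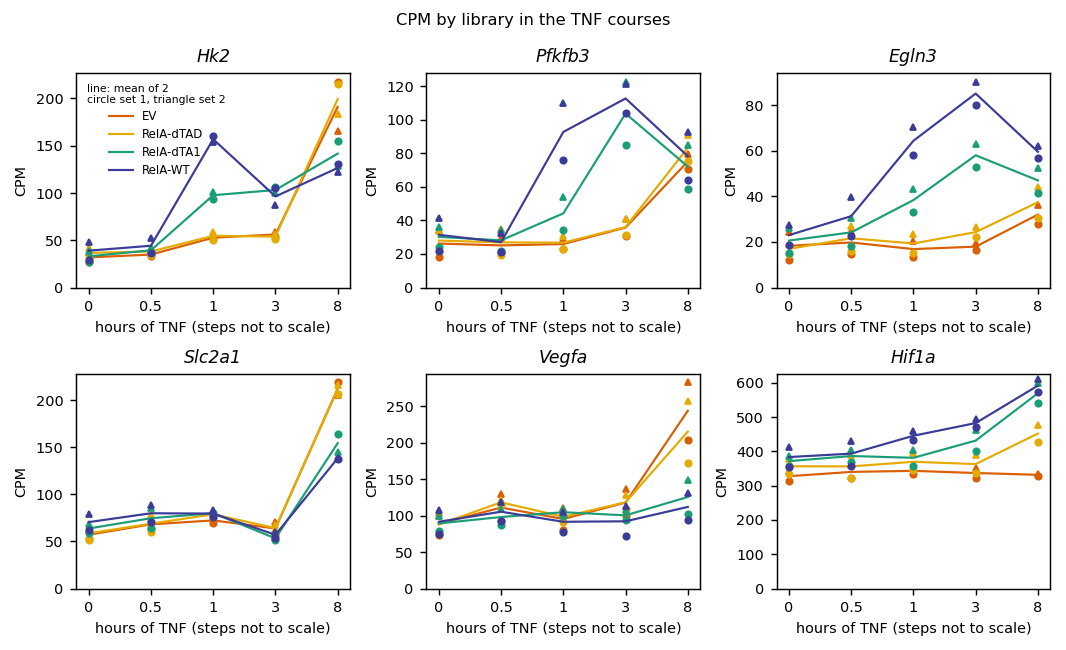
CPM of 6 members in each library at 0, 0.5, 1, 3 and 8 h of TNF (x axis in equal steps) in EV, RelA-dTAD, RelA-dTA1 and RelA-WT cells; circles are set 1, triangles set 2 and lines the mean of both. The RelA-WT courses of Hk2, Pfkfb3 and Egln3 leave the EV and RelA-dTAD courses at 1 h, whereas Slc2a1 and Vegfa separate at 8 h with EV and RelA-dTAD on top.

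Slc2a1 encodes GLUT1, the transporter through which fibroblasts take up most of their glucose. Up to 3 h it passed in none of the 4 constructs, and with the set as a block only in RelA-dTAD cells at 1 h (0.41 ± 0.11, adjusted p = 0.0324) and RelA-WT cells at 3 h (-0.31 ± 0.11, 0.0385). At 8 h it was at 219 and 205 CPM in EV, 207 and 217 CPM in RelA-dTAD, 164 and 145 CPM in RelA-dTA1 and 138 and 139 CPM in RelA-WT cells, where the 8 libraries at 0 h lay between 51.7 and 78.7 CPM. The EV and RelA-dTAD libraries at 8 h were all above those of RelA-dTA1 and RelA-WT, which in turn were above every library at 0 h. The rise was 1.93 ± 0.16 in EV (adjusted p = 5.06e-10), 1.86 ± 0.16 in RelA-dTAD (1.03e-09), 1.27 ± 0.15 in RelA-dTA1 (6.48e-07) and 0.96 ± 0.15 in RelA-WT cells (3.77e-05). The response was 0.96 ± 0.22 greater in EV than in RelA-WT (adjusted p = 0.0026; 0.93 in set 1 and 0.90 in set 2) and 0.90 ± 0.22 greater in RelA-dTAD than in RelA-WT (0.0062; 0.86 and 0.90). Without set 1 of EV the difference between EV and RelA-WT was 0.78 (adjusted p = 0.0805) and without set 2 of RelA-WT 0.74 (0.103). That between RelA-dTAD and RelA-WT was 0.77 without set 1 of RelA-dTAD (0.0804) and 0.68 without set 2 of RelA-WT (0.171). Hk1, the hexokinase expressed in most cells, was lower at 8 h in EV cells (117 and 150 CPM) than in RelA-WT cells (182 and 204 CPM). Its 8 h response differed by -0.46 ± 0.16 (adjusted p = 0.0464), though the changes themselves, -0.18 ± 0.11 in EV and 0.28 ± 0.11 in RelA-WT, passed only with the block (adjusted p = 0.0346 and 0.00122). Hk1 rose in RelA-dTA1 (0.44 ± 0.11, adjusted p = 0.00347). The Hk1 difference failed the test without EV replicate 1 (-0.46, adjusted p = 0.129), RelA-WT replicate 1 (-0.52, 0.102) or RelA-WT replicate 2 (-0.48, 0.174) and without the filter on low counts (-0.47, 0.0889). The RelA-dTA1 rise failed it without either replicate (0.48, adjusted p = 0.0632, and 0.41, 0.0877). Slc2a3, the neuronal-type transporter GLUT3, stayed at or below 24.1 CPM and passed in no construct without the block. It was at 14.1 and 24.1 CPM at 8 h in EV cells, against 11.1 and 17.1 CPM at 0 h, and at 6.28 and 11.3 CPM at 8 h in RelA-WT cells, against 12.1 and 15.8 CPM at 0 h. With the block it rose at 8 h in EV cells (0.49 ± 0.15, adjusted p = 0.00537) and fell in RelA-WT cells (-0.62 ± 0.17, 0.00251). The response difference of 1.12 ± 0.56 (adjusted p = 0.189) passed with the set as a block (1.12 ± 0.23, adjusted p = 0.000188).

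At the phosphofructokinase step the activating enzyme and the catalytic subunits went different ways. Pfkfb3 makes the sugar phosphate that switches phosphofructokinase on. At 1 h it was at 22.9 and 29.0 CPM in EV, 22.9 and 30.6 CPM in RelA-dTAD, 34.2 and 54.2 CPM in RelA-dTA1 and 75.7 and 109.6 CPM in RelA-WT cells. At 3 h it was at 30.7 and 40.8 CPM in EV, 31.5 and 40.65 CPM in RelA-dTAD, 84.85 and 122 CPM in RelA-dTA1 and 104 and 121.5 CPM in RelA-WT cells. The 0 h libraries lay between 18.1 and 41.15 CPM, so that the RelA-WT libraries were above them all at 1 h, and those of RelA-dTA1 joined them at 3 h. By 8 h the 8 libraries overlapped, at 59.0 to 92.7 CPM. The rise at 3 h was 1.78 ± 0.36 in RelA-dTA1 (adjusted p = 0.00105) and 1.82 ± 0.36 in RelA-WT cells (0.000794). At 1 h it was 1.55 ± 0.36 in RelA-WT cells (0.012). At 8 h it lay between 1.25 in RelA-dTA1 and 1.57 in RelA-dTAD cells, past the threshold in all 4. The 3 h response was 1.38 ± 0.51 lower in EV and 1.46 ± 0.51 lower in RelA-dTAD than in RelA-WT, short of the threshold (adjusted p = 0.199 and 0.170) and past it with the set as a block (1.92e-06 and 5.15e-07). Within sets the EV difference was -1.49 in set 1 and -1.31 in set 2, and the RelA-dTAD difference -1.74 and -1.3. The 1 h rise in RelA-WT was 1.41 without replicate 1 (adjusted p = 0.301) and 1.81 without replicate 2 (0.158), the 3 h rise 1.56 without replicate 1 (0.0688). The 8 h call failed without EV replicate 1 (1.24, adjusted p = 0.073), RelA-WT replicate 1 (1.17, 0.158) or either RelA-dTA1 replicate (1.24, 0.0921, and 1.3, 0.075).

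Of the 3 phosphofructokinase genes only Pfkm, the muscle-type subunit, fell in the test. At 8 h it was at 38.5 and 33.2 CPM in EV cells, against 106 and 79.8 CPM at 0 h, and at 32.6 and 29.5 CPM in RelA-dTAD cells, against 106 and 76.6 CPM at 0 h. It was at 40.4 and 39.97 CPM at 8 h in RelA-dTA1 cells, against 99.75 and 80.9 CPM at 0 h, and at 43.8 and 46.5 CPM in RelA-WT cells, against 99.5 and 73.7 CPM at 0 h. Every 8 h library was below every 0 h library. The change was -1.34 ± 0.21 in EV (adjusted p = 1.25e-05), -1.54 ± 0.21 in RelA-dTAD (2.25e-06), -1.16 ± 0.21 in RelA-dTA1 (0.000116) and -0.93 ± 0.21 in RelA-WT cells (0.00147; -0.67, adjusted p = 0.192, without RelA-WT replicate 1). Pfkl and Pfkp, the liver and platelet subunits, passed in none of the 4 constructs at 8 h, though with the block Pfkl was higher in all but EV and Pfkp in EV and RelA-dTAD. Pfkfb4, a relative of Pfkfb3, lay between 3.47 and 9.84 CPM in these 40 libraries and fell in RelA-dTAD cells at 8 h (-0.70 ± 0.21, adjusted p = 0.00752). The call was lost without RelA-dTAD replicate 1 (-0.52, 0.198) and without the filter on low counts (-0.69, 0.0924).

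From aldolase to pyruvate kinase, the brain-type Aldoc and Eno2 passed the test, as did Gapdh in EV cells, and Aldoa, Pgk1, Pgam1, Eno1 and Pkm passed only with the set as a block, in cells other than RelA-WT. Aldoc, the brain-type aldolase gene, fell at 8 h to 1.43 and 1.45 CPM in EV cells, against 4.01 and 3.45 CPM at 0 h, and to 2.03 and 2.16 CPM in RelA-WT cells, against 3.99 and 5.18 CPM. The change was -1.32 ± 0.33 in EV (adjusted p = 0.00194), -1.001 ± 0.30 in RelA-dTAD (0.00785), -1.16 ± 0.30 in RelA-dTA1 (0.00416) and -1.14 ± 0.30 in RelA-WT cells (0.00556). At these low counts the call held without either EV replicate but failed without either RelA-dTAD replicate (-0.92, adjusted p = 0.0583, and -1.03, 0.0736), RelA-dTA1 replicate 2 (-1.02, 0.179) or either RelA-WT replicate (-1.26, 0.065, and -0.96, 0.207). Eno2, the neuronal enolase gene, was at 58.5 and 70.5 CPM at 3 h in RelA-dTA1 cells, against 23.4 and 33.6 CPM at 0 h. The rise was 1.18 ± 0.29 (adjusted p = 0.00603; 1.09, adjusted p = 0.155, and 1.34, 0.0842, without replicate 1 or 2). In RelA-WT cells Eno2 was at 40.3 and 57.0 CPM at 3 h, against 25.7 and 29.45 CPM at 0 h (0.83 ± 0.29, adjusted p = 0.0561, blocked 0.00037), and at 21.3 and 27.75 CPM at 8 h. Gapdh passed at 8 h in EV cells, at 10.0 and 8.07 CPM against 3.18 and 4.41 CPM at 0 h (1.25 ± 0.44, adjusted p = 0.0223). With 7 to 160 reads in each of the 75 libraries and the shared sequence named above the call is uncertain. It was lost without either EV replicate (0.90, adjusted p = 0.33, and 1.67, 0.0848). In the other constructs Gapdh was at 3.67 and 8.64 CPM at 8 h in RelA-dTAD, 2.02 and 8.08 CPM in RelA-dTA1 and 3.24 and 5.95 CPM in RelA-WT cells. With the block it also passed in RelA-dTAD cells (0.83 ± 0.28, adjusted p = 0.0101).

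Gpi1, the phosphoglucose isomerase gene, and Aldoa, Tpi1, Pgk1, Pgam1, Eno1 and Pkm passed at no time in any of the 4 constructs without the block. For Aldoa the sets lay apart by more than the change. It was at 397 and 666 CPM at 8 h in EV cells, against 321 and 530.3 CPM at 0 h, and at 351.5 and 642 CPM at 8 h in RelA-WT cells, against 348 and 654 CPM at 0 h. With the block it rose at 8 h in EV (0.355 ± 0.07, adjusted p = 4.59e-05), RelA-dTAD (0.38 ± 0.07, 1.52e-05) and RelA-dTA1 cells (0.24 ± 0.07, 0.00445), and the change in RelA-WT cells was -0.011 ± 0.07 (0.919). Eno1, the main enolase gene, was at 170.3 and 215 CPM at 8 h in EV cells, against 142 and 167 CPM at 0 h, and at 141 and 185 CPM at 8 h in RelA-WT cells, against 147 and 211 CPM at 0 h. It was above its 0 h library in both sets in EV cells and below it in both sets in RelA-WT cells. With the block it rose in EV (0.35 ± 0.09, adjusted p = 0.000882) and RelA-dTAD cells (0.46 ± 0.09, 2.72e-05), and the change was 0.16 ± 0.09 in RelA-dTA1 (0.121) and -0.14 ± 0.09 in RelA-WT cells (0.217). Pgam1, a phosphoglycerate mutase gene, was at 11.5 and 20.6 CPM at 8 h in EV cells, against 5.115 and 11.15 CPM at 0 h. With the block it rose in EV (0.9997 ± 0.21, adjusted p = 0.000118) and RelA-dTA1 cells (0.54 ± 0.19, 0.0158), and the change was 0.37 ± 0.19 in RelA-dTAD (0.092) and 0.26 ± 0.19 in RelA-WT cells (0.279). Pkm and the phosphoglycerate kinase gene Pgk1 passed with the block in EV (adjusted p = 0.00228 for Pkm and 0.0397 for Pgk1) and RelA-dTAD cells (0.0213 for Pkm and 0.00449 for Pgk1), and Pgk1 in RelA-dTA1 cells too (0.00546). Gpi1 fell in RelA-WT cells in that fit (-0.31 ± 0.07, 0.000388), and Tpi1 passed at no time in either fit. With the block the 8 h response of EV was greater than that of RelA-WT for Gpi1, Aldoa, Pgam1, Eno1 and Pkm (adjusted p between 0.00219 and 0.0458), and that of RelA-dTAD for Gpi1, Aldoa, Eno1 and Pkm (between 0.000372 and 0.0145). At 0 h Gpi1, Aldoa, Pgam1, Eno1 and Pkm were lower in EV than in RelA-WT cells in both sets, which enters the difference. At 8 h Gpi1 was at 177 and 226 CPM in EV and at 137 and 211 CPM in RelA-WT cells. Pkm was then at 831 and 1077 CPM in EV and at 671 and 1070 CPM in RelA-WT cells. Pgam1 was at 12.6 and 18.8 CPM in RelA-WT cells, with EV below in set 1 and above in set 2. The part of the 0 h levels was not tested.

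At the lactate end, the exporter gene rose in every construct and the minor lactate dehydrogenase subunit fell. Slc16a1 encodes MCT1, which moves lactate and pyruvate across the membrane. At 8 h it was at 235 and 220.5 CPM in EV, 172 and 216 CPM in RelA-dTAD, 187 and 189.7 CPM in RelA-dTA1 and 189 and 203 CPM in RelA-WT cells, where all 0 h libraries lay between 101 and 109.9 CPM. The 8 h and 0 h libraries did not overlap, and the rise was 1.15 ± 0.09 in EV (adjusted p = 1.26e-10), 0.94 ± 0.08 in RelA-dTAD (3.59e-09), 0.82 ± 0.08 in RelA-dTA1 (5.69e-08) and 0.89 ± 0.08 in RelA-WT cells (2.26e-08). At 3 h Slc16a1 had risen by 0.38 ± 0.08 in RelA-dTA1 (adjusted p = 0.00222) and 0.39 ± 0.08 in RelA-WT cells (0.00182). Both calls were lost without the filter on low counts (0.36, adjusted p = 0.0637, and 0.37, 0.0518). The RelA-dTA1 call was also lost without either RelA-dTA1 replicate (0.34, adjusted p = 0.188, and 0.43, 0.0768) and the RelA-WT call without RelA-WT replicate 1 (0.35, 0.0976).

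Ldhb, the subunit that favours lactate oxidation, was at 12.4 and 13.45 CPM at 8 h in EV cells, against 28.1 and 25.8 CPM at 0 h, and at 17.6 and 16.6 CPM in RelA-WT cells, against 27.15 and 23.6 CPM. The fall passed in all 4 constructs. Ldhb fell by 1.01 ± 0.14 in EV (adjusted p = 1.42e-06), 1.07 ± 0.13 in RelA-dTAD (4.21e-07), 0.71 ± 0.13 in RelA-dTA1 (0.000158) and 0.57 ± 0.13 in RelA-WT cells (0.00209; fell by 0.50, adjusted p = 0.105, without RelA-WT replicate 1). Ldha, the subunit that makes lactate, was at 366.5 and 627 CPM at 8 h in EV cells, against 205 and 418 CPM at 0 h, and at 309.5 and 577 CPM at 8 h in RelA-WT cells, against 231 and 564 CPM. Its 2 sets did not overlap at either time, and it passed in no construct (0.71 ± 0.62 in EV, adjusted p = 0.359). With the set as a block it rose in EV, RelA-dTAD and RelA-dTA1 cells (adjusted p = 2.81e-05, 2.01e-05 and 0.000562) and not in RelA-WT cells (0.206). Slc16a3, which encodes the lactate exporter MCT4, likewise passed at 8 h only with the block, in all 4 constructs. Pdk1, a pyruvate dehydrogenase kinase gene, fell at 8 h in EV (-0.68 ± 0.15, adjusted p = 0.000517), RelA-dTAD (-0.56 ± 0.15, 0.00264) and RelA-dTA1 cells (-0.41 ± 0.14, 0.0317). It was at 38.2 and 43.8 CPM at 8 h in EV cells, against 70.5 and 64.9 CPM at 0 h. In RelA-WT cells the change was -0.24 ± 0.14 (0.239, blocked 0.0438). These calls were lost without replicate 1 of the construct, at -0.54 in EV (adjusted p = 0.0759), -0.47 in RelA-dTAD (0.0827) and -0.23 in RelA-dTA1 (0.487).

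Among the hypoxia genes, Hif1a itself passed as higher at 8 h in RelA-dTAD, RelA-dTA1 and RelA-WT cells and not in EV cells. Without the block only the EV response differed from that of RelA-WT. In EV cells it was at 329 and 334 CPM at 8 h, against 312 and 343 CPM at 0 h. In RelA-dTAD cells it was at 428 and 476 CPM at 8 h, against 335 and 378 CPM, and in RelA-dTA1 cells at 540.0 and 599 CPM, against 356 and 387 CPM. In RelA-WT cells it was at 573 and 610.0 CPM at 8 h, against 354 and 413 CPM at 0 h. The 8 h libraries of EV lay within the range of the 0 h libraries, whereas those of the other constructs lay above their own 0 h libraries. The change was 0.05 ± 0.11 in EV (adjusted p = 0.713), 0.36 ± 0.11 in RelA-dTAD (0.00931), 0.62 ± 0.11 in RelA-dTA1 (0.000104) and 0.62 ± 0.11 in RelA-WT cells (0.000132), and 0.34 ± 0.11 in RelA-WT cells at 3 h (0.0364). The 8 h response was 0.57 ± 0.16 lower in EV than in RelA-WT (adjusted p = 0.012), at -0.62 in set 1 and -0.60 in set 2, and 0.26 ± 0.16 lower in RelA-dTAD (0.326, blocked 0.0132). It failed the test without either EV replicate (-0.64, adjusted p = 0.0636, and -0.55, 0.0844) or RelA-WT replicate 1 (-0.54, 0.0779). The RelA-dTAD rise failed it without RelA-dTAD replicate 1 (0.34, 0.0801), and the 3 h rise without either RelA-WT replicate (0.26, 0.492, and 0.43, 0.116) and without the filter on low counts (0.32, 0.0901).

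Egln3, the prolyl hydroxylase gene that HIF induces and that in turn limits HIF, was at 16.5 and 19.4 CPM at 3 h in EV cells and at 21.98 and 26.7 CPM in RelA-dTAD cells. It was at 53.0 and 63.1 CPM in RelA-dTA1 and at 80.1 and 90.1 CPM in RelA-WT cells at 3 h, where the 0 h libraries of the 4 constructs lay between 12.2 and 27.3 CPM. EV and RelA-dTAD libraries at 3 h were thus within the 0 h range, and those of RelA-dTA1 and RelA-WT were apart from it and from each other. The rise was 1.48 ± 0.34 in RelA-dTA1 (adjusted p = 0.00397) and 1.88 ± 0.35 in RelA-WT cells (0.000365), and in RelA-WT cells it had reached 1.48 ± 0.35 at 1 h (0.0126). The 3 h response was 1.92 ± 0.50 lower in EV than in RelA-WT (adjusted p = 0.0279; -1.65 in set 1 and -2.05 in set 2), and 1.36 ± 0.49 lower in RelA-dTAD, which passed only with the block (adjusted p = 0.205, blocked 7.06e-05). At 8 h Egln3 was at 27.7 and 36.3 CPM in EV cells, against 12.2 and 24.5 CPM at 0 h, and at 30.6 and 44.3 CPM in RelA-dTAD, 41.4 and 52.6 CPM in RelA-dTA1 and 56.9 and 62.1 CPM in RelA-WT cells. All 8 libraries were above their own 0 h libraries. The rise passed in RelA-dTAD (1.16 ± 0.35, adjusted p = 0.00893), RelA-dTA1 (1.17 ± 0.34, 0.0103) and RelA-WT cells (1.35 ± 0.35, 0.00488), and in EV cells only with the block (0.83 ± 0.36, 0.059, blocked 0.000132). The 8 h call was lost without either RelA-dTAD replicate (1.23, adjusted p = 0.0567, and 1.055, 0.138), without RelA-dTA1 replicate 1 (1.02, 0.165) and without RelA-WT replicate 1 (1.19, 0.163). The 8 h response of EV differed from that of RelA-WT by -0.53 ± 0.50, which passed in neither fit (adjusted p = 0.544, blocked 0.0692). The EV difference at 3 h failed the test without EV replicate 2 (-1.43, adjusted p = 0.459), RelA-WT replicate 1 (-1.77, 0.244) or RelA-WT replicate 2 (-2.15, 0.126). The 1 h rise failed it without either RelA-WT replicate (1.37, 0.371, and 1.65, 0.262), and the RelA-dTA1 rise without RelA-dTA1 replicate 1 (1.29, 0.131). Egln1, the main prolyl hydroxylase gene in most tissues, changed less, by 0.56 ± 0.21 at 8 h in RelA-dTAD cells (adjusted p = 0.0338; 0.52, 0.185, and 0.60, 0.126, without replicate 1 or 2) and by 0.10 ± 0.21 in RelA-WT cells (0.772).

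Vegfa, the HIF target that encodes the main vessel growth factor, stood at 204 and 283.5 CPM at 8 h in EV cells and at 173 and 258 CPM in RelA-dTAD cells. It was at 103 and 148 CPM in RelA-dTA1 and at 93.4 and 131 CPM in RelA-WT cells at 8 h, with 0 h libraries between 74.1 and 108 CPM. Within each set the EV and RelA-dTAD libraries were above those of RelA-dTA1 and RelA-WT. Vegfa rose in EV (1.49 ± 0.27, adjusted p = 6.61e-05) and RelA-dTAD cells (1.31 ± 0.27, 0.000298). It did not pass in RelA-dTA1 (0.50 ± 0.27, 0.155) or RelA-WT cells (0.29 ± 0.27, 0.47), where it passed with the block (3.39e-05 and 0.0145). The response was 1.21 ± 0.38 greater in EV than in RelA-WT (adjusted p = 0.0276; 1.15 in set 1 and 1.18 in set 2) and 1.02 ± 0.38 greater in RelA-dTAD (0.0806; blocked 3.14e-07). The EV difference lay between 1.13 and 1.19 with any 1 of the 4 replicates of EV and RelA-WT left out and passed in none of these fits (adjusted p between 0.083 and 0.136).

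Ddit4, which encodes the mTORC1 inhibitor REDD1, went the other way from Vegfa. It was at 18.4 and 19.6 CPM at 8 h in EV cells, against 35.9 and 64.4 CPM at 0 h, and at 23.85 and 28.0 CPM in RelA-dTAD cells, against 36.3 and 65.2 CPM. In RelA-WT cells it was at 77.8 and 88.7 CPM at 1 h and at 47.8 and 64.0 CPM at 8 h, against 40.1 and 71.3 CPM at 0 h. The fall was 1.37 on the log2 scale in EV (-1.37 ± 0.38, adjusted p = 0.00428) and passed in RelA-dTAD cells too (-0.96 ± 0.36, 0.0329), and the change in RelA-WT cells did not (adjusted p = 0.998). The 8 h difference between EV and RelA-WT was -1.37 ± 0.52 (adjusted p = 0.0697) and passed with the block (1.21e-05). The EV fall was -0.95 without EV replicate 2 (adjusted p = 0.185), and the RelA-dTAD fall failed without either replicate (-1.21, 0.0641, and -0.59, 0.426).

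Ero1l, which encodes an oxidase of disulfide formation in the endoplasmic reticulum, rose at 8 h by 0.97 ± 0.15 in EV (adjusted p = 6.45e-06), 1.096 ± 0.14 in RelA-dTAD (1.17e-06), 0.94 ± 0.14 in RelA-dTA1 (1.8e-05) and 0.74 ± 0.14 in RelA-WT cells (0.000421; 0.63, adjusted p = 0.0574, without RelA-WT replicate 1). It was at 124 and 118 CPM at 8 h in EV cells, against 63.0 and 63.7 CPM at 0 h, and at 119 and 118 CPM in RelA-WT cells, against 65.15 and 76.5 CPM. Ndrg1, a stress-responsive HIF target, was higher at 8 h in all 4 constructs, but its sets lay apart. Without the block only the RelA-dTA1 change passed (1.08 ± 0.36, adjusted p = 0.0214; 1.17, 0.145, and 1.03, 0.148, without replicate 1 or 2), and with it all 4 passed. Bnip3, a mitophagy receptor gene, passed in no construct (with the block it was lower at 3 h in RelA-WT cells, adjusted p = 0.0149) and is among the genes with shared sequence.

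The study's title names the transactivation logic of RelA target genes, and the difference of each response from that of RelA-WT was tested. All these comparisons share the RelA-WT libraries. At 8 h 5 members differed between EV and RelA-WT (15.6% of members, 17.6% of all genes): the EV response was greater for Vegfa, Slc2a1 and Hk2 and lower for Hif1a and Hk1. Between RelA-dTAD and RelA-WT only Slc2a1 differed (3.12% of members, 12.2% of all genes), and between RelA-dTA1 and RelA-WT none (0% of all genes; no member at an unadjusted p under 0.05, none by DESeq2). At 3 h Egln3 alone differed between EV and RelA-WT (3.68% of all genes). None differed there between RelA-dTAD and RelA-WT (3.1%; 3 members at an unadjusted p under 0.05, none by DESeq2) or between RelA-dTA1 and RelA-WT (0%; no member at an unadjusted p under 0.05, none by DESeq2). At 1 h Hk2 differed in EV (0.6% of all genes) and in RelA-dTAD (0.6%), and no member in RelA-dTA1 (0%; no member at an unadjusted p under 0.05, none by DESeq2). With the set as a block the 8 h counts were 11 greater and 6 lower in EV (33.5% of all genes), 10 greater and 4 lower in RelA-dTAD (27.8%), and none in RelA-dTA1 (0.0585%). Those added in EV were Slc2a3, Gpi1, Pfkp, Aldoa, Pgam1, Eno1, Pkm and Ldha as greater and Pfkm, Ldhb, Pdk1 and Ddit4 as lower. In RelA-dTAD they were Slc2a3, Gpi1, Aldoa, Eno1, Pkm, Ldha, Slc16a3, Vegfa and Egln1 as greater and Pfkm, Ldhb, Hif1a and Ddit4 as lower. The 3 h counts were 1 and 4 in EV (9.07%) and 1 and 3 in RelA-dTAD (8.34%), adding Slc2a3 as greater and Hk1, Pfkfb3 and Hif1a as lower in EV, and Slc16a3 as greater and Pfkfb3, Hif1a and Egln3 as lower in RelA-dTAD. The 1 h counts were 0 and 5 in EV (1.45%), 0 greater and 4 lower in RelA-dTAD (1.65%), and 0 greater and 1 lower in RelA-dTA1 (0.227%). The members added at 1 h were Pfkfb3, Egln3, Ddit4 and Eno2 in EV, Pfkfb3, Egln3 and Ddit4 in RelA-dTAD, and Pfkfb3 in RelA-dTA1. The EV difference at 8 h had the same sign in both sets for 29 members, positive for 18 and negative for 11. The share of all genes with the same sign in both sets was not counted, so that this count cannot be set against it.

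**Figure D3:**
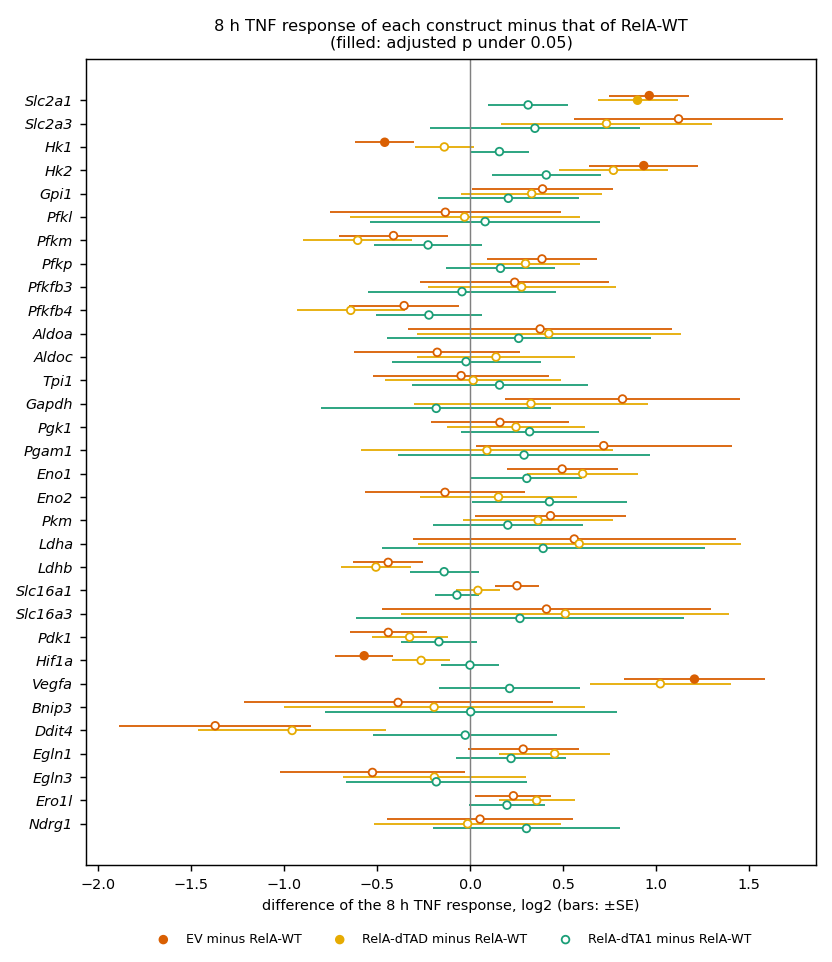
Difference of the 8 h TNF response (log2 change against 0 h) of EV, RelA-dTAD and RelA-dTA1 from that of RelA-WT for each of the 32 members, with bars of 1 standard error; filled points passed edgeR's quasi-likelihood test at an adjusted p under 0.05. Slc2a1, Hk2 and Vegfa lie right and Hk1 and Hif1a left of 0 as filled EV points, Slc2a1 is the filled RelA-dTAD point, and no RelA-dTA1 point is filled.

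The 7 mutants with 1 library at each time have no replicate check and were set beside the libraries of their own set. In RelA-DB and RelA-dCterm cells of set 1 the courses ran close to EV. Hk2 was at 51.15 CPM at 1 h and 214.5 CPM at 8 h in RelA-DB, and at 48.9 and 212 CPM in RelA-dCterm, beside 52.0 and 217 CPM in EV and 160.2 and 130.5 CPM in RelA-WT cells. Slc2a1 was at 271.5 CPM in RelA-DB and 212 CPM in RelA-dCterm at 8 h, beside 219 CPM in EV and 138 CPM in RelA-WT cells. Hif1a changed by 0.10 in RelA-DB and 0.11 in RelA-dCterm at 8 h, beside 0.07 in EV and 0.70 in RelA-WT cells of that set. In set 2, Hk2 at 1 h was at 131 CPM in RelA-TA2_S467A, 95.05 CPM in RelA-TA2_CI and 83.8 CPM in RelA-TA2_CI_S467A. It was lower in the 2 mutants with dTA1 in their name, at 62.9 CPM in RelA-TA2_CI-dTA1 and 66.85 CPM in RelA-TA2_CI_S467A-dTA1, beside 53.55 CPM in EV and 154 CPM in RelA-WT cells. Egln3 at 3 h had these 5 mutants in the same order, at 86.5 CPM in RelA-TA2_S467A, 62.3 CPM in RelA-TA2_CI and 56.2 CPM in RelA-TA2_CI_S467A. It was at 32.6 CPM in RelA-TA2_CI_S467A-dTA1 and 27.0 CPM in RelA-TA2_CI-dTA1, beside 19.4 CPM in EV and 90.1 CPM in RelA-WT cells. For Pfkfb3 at 3 h the 3 mutants without dTA1 in their name were at 96.1 to 123 CPM and the 2 with it at 51.6 and 55.1 CPM. At 8 h Vegfa was at 204 CPM in RelA-TA2_CI-dTA1 and 193 CPM in RelA-TA2_CI_S467A-dTA1, above the 132 to 147 CPM of the other 3 mutants of set 2. Past a 2-fold change at 8 h were 10 members in RelA-DB (30.1% of all 15090 genes) and 11 in RelA-dCterm (28.2%). In set 2 they were 3 in RelA-TA2_CI (11.6%), 3 in RelA-TA2_S467A (10.6%), 3 in RelA-TA2_CI_S467A (13.8%), 9 in RelA-TA2_CI-dTA1 (19.1%) and 9 in RelA-TA2_CI_S467A-dTA1 (16.3%).

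**Figure D4:**
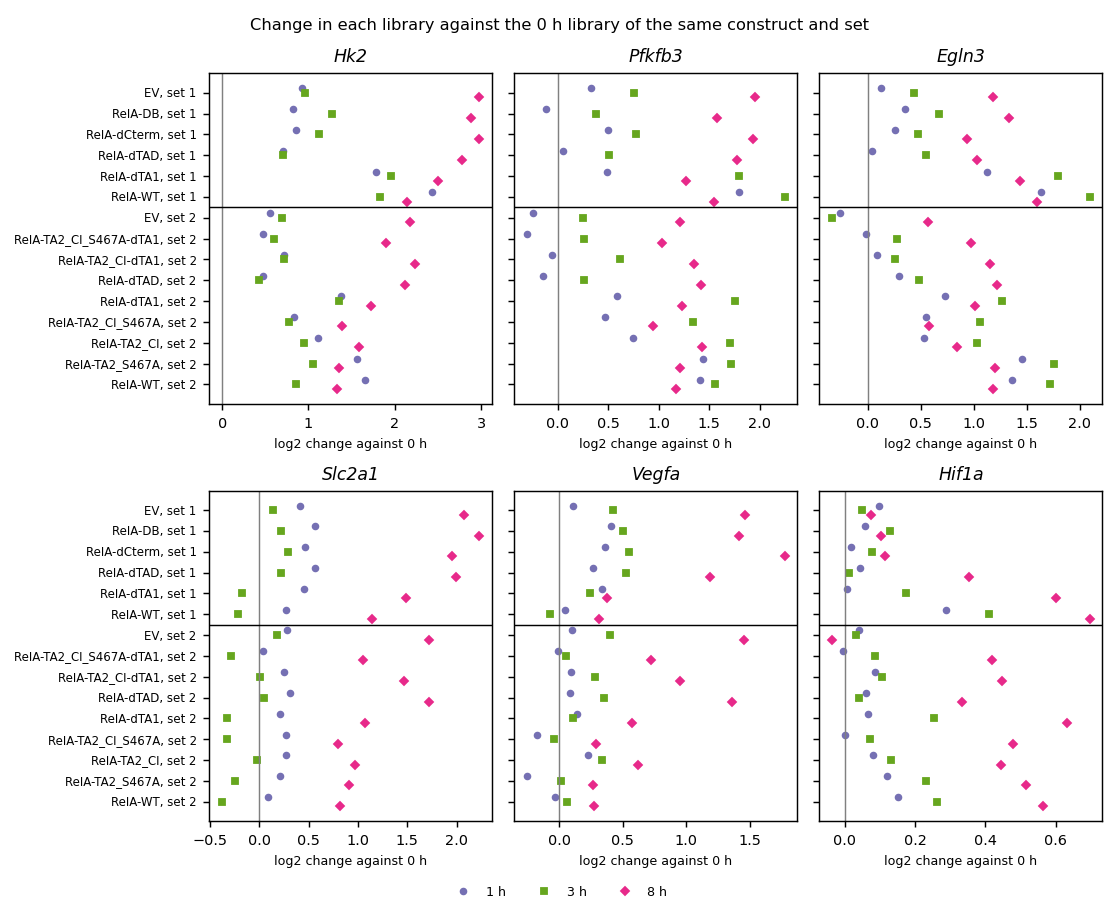
Log2 change of 6 members (prior count 2) against the 0 h library of the same construct and set, with 1 row for each construct and set, set 1 above and set 2 below the line; circles are 1 h, squares 3 h and diamonds 8 h of TNF. In set 2 both mutants with dTA1 beside a TA2 change sit near EV and RelA-dTAD for Hk2, Pfkfb3 and Egln3 at 1 and 3 h, and RelA-TA2_S467A sits near RelA-WT.

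Further genes of the same pathways were taken from a list of 84, of which 74 were tested. Of 39 tested HIF and hypoxia genes 15 rose (38.5%) and 8 fell (20.5%) at 8 h in EV cells, where 25.6% of all genes rose and 23.1% fell. In RelA-dTAD cells 16 rose and 6 fell, where 24.4% of all genes rose and 22.5% fell. In RelA-dTA1 cells 11 rose and 2 fell (19.4% and 15.3% of all genes), and in RelA-WT cells 6 rose and 3 fell (15.8% and 11.6%). The median change of this list was 0.36 in EV, 0.44 in RelA-dTAD, 0.24 in RelA-dTA1 and 0.15 in RelA-WT on the log2 scale, beside -0.032 to -0.015 for all genes. With the block 23 rose and 11 fell in EV, 22 rose and 11 fell in RelA-dTAD, 17 rose and 6 fell in RelA-dTA1, and 14 rose and 5 fell in RelA-WT cells. Of 35 other sugar, pyruvate and glycogen genes 5 rose (14.3%) and 12 fell (34.3%) in EV cells, set against the same shares of all genes. In RelA-dTAD cells 5 rose and 11 fell (31.4%), in RelA-dTA1 5 rose and 9 fell (25.7%), and in RelA-WT cells 4 rose and 6 fell (17.1%). With the block 6 rose and 15 fell in EV, 8 rose and 17 fell in RelA-dTAD, 10 rose and 13 fell in RelA-dTA1, and 7 rose and 11 fell in RelA-WT cells. The blocked counts of both lists stand beside larger shares of all genes than those above. In that fit 62.6% of all genes changed in either direction in EV, 63.4% in RelA-dTAD, 52.2% in RelA-dTA1 and 44.8% in RelA-WT cells.

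Angptl4, a secreted lipase inhibitor gene, rose in all 4 constructs, by 4.11 ± 0.24 in EV (log2 ± SE, adjusted p = 2.99e-12) and 2.35 ± 0.23 in RelA-WT cells (3.97e-08). Rsbn1 rose in all 4 too, by 2.76 ± 0.16 in EV and 0.68 ± 0.15 in RelA-WT cells. Stc1, which encodes the secreted protein stanniocalcin-1, rose in EV (2.37 ± 0.26) and RelA-dTAD cells (2.16 ± 0.25), and the change in RelA-WT cells was -0.29 ± 0.26 (adjusted p = 0.458). Adm, which encodes adrenomedullin, rose in every construct, by 2.07 ± 0.24 in EV, 2.27 ± 0.24 in RelA-dTAD, 1.94 ± 0.23 in RelA-dTA1 and 1.497 ± 0.23 in RelA-WT cells. The difference of its EV response from that of RelA-WT, 0.57 ± 0.33, did not pass (adjusted p = 0.263). Car12, a carbonic anhydrase gene, likewise rose in all 4, by between 0.82 ± 0.25 in EV and 1.103 ± 0.24 in RelA-WT cells. Among the falls, Ppp1r3c, a glycogen-targeting phosphatase subunit gene, changed by -4.19 ± 0.48 in EV and -2.22 ± 0.37 in RelA-WT cells. The pyruvate dehydrogenase kinase gene Pdk2 changed by -2.72 ± 0.20 in EV and -0.999 ± 0.18 in RelA-WT cells, and both genes fell in all 4 constructs. Txnip, which restrains glucose uptake, fell in EV (-2.05 ± 0.38) and RelA-dTAD cells (-1.74 ± 0.37), and the change in RelA-WT cells was -0.65 ± 0.36 (adjusted p = 0.201). Mxi1 fell in all 4 constructs, with changes of -1.28 ± 0.25 in EV and -0.82 ± 0.24 in RelA-WT cells. Arnt2 did so too, with changes of -0.73 ± 0.29 in EV and -1.31 ± 0.30 in RelA-WT cells. Pgf (-2.99 ± 0.61) and Slc2a12 (-1.46 ± 0.47) fell in RelA-WT cells at under 2 CPM, and Slc2a12 also in RelA-dTA1 cells (-1.84 ± 0.51). Their changes in EV cells were 0.26 ± 0.49 for Pgf and -0.77 ± 0.62 for Slc2a12.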

How the data were processed

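RNA of the fibroblasts was sequenced from 75 poly(A)-selected, strand-marking libraries (KAPA stranded mRNA kit, single-end reads of 50 bases), per the labels' protocols. The values used are raw counts of reads per gene as deposited by the authors, in 2 tables; the submitters' processing notes name cutadapt 1.9.1, STAR, featureCounts 1.5.0, DESeq2 and mm10, and the strand setting and the handling of reads with several matches are not given in the sources used here. All 75 sample columns were used, and 98.77% of the 45706 gene entries had a symbol.

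The members and all gene lists were chosen with earlier results of these data known. The 40 libraries of the 4 constructs with 2 libraries were fitted with edgeR 4.0.16 in R 4.3.3 (filterByExpr, TMM, robust quasi-likelihood, 1 mean for each construct and time, 20 residual degrees of freedom), with Benjamini-Hochberg adjustment over 13665 genes at 0.05; the standard error is the log2 fold change over the square root of F. The tests were also run on simulated data with 200 changed genes, whose outcome is not given here and is not used as support. The labels do not call the libraries of a group separate cultures, and a p-value then reflects their spread alone, which may be technical. CPM used TMM factors over all 75 libraries, and log2 changes of single libraries a prior count of 2. Set 1 held 30 libraries and set 2 held 45, sequenced more deeply, so that low counts are less precise in set 1.

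Replicate numbers follow the sets: over 190 pairs of groups, deviations from the group mean correlated by 0.353 to 0.661 between libraries of the same number, so that the number pairs libraries. The main fit does not use this pairing, so that differences between the sets enter its spread. A member that did not pass in the main fit may therefore pass with the block. All members that only this block calls are named, with values for those described in detail. Alternatives were the block, DESeq2's size factors, the DESeq2 1.42.0 Wald test, no filter on low counts and leaving out all 5 libraries of a replicate of a construct. The tests at 0.5 and 1 h were added after the data were seen. Named genes were those past the threshold in a difference from RelA-WT, the 3 with the greatest rise and fall at 8 h in each construct and 8 by role; Aldoa, Eno1, Pgam1, Pkm, Pgk1, Gpi1, Eno2, Pdk1, Slc16a1, Slc16a3, Slc2a3, Ero1l, Ndrg1, Egln1 and Bnip3 were described in addition, with their values seen. Promoters are from RefSeq on GRCm38.p6. The 50-base windows of each member's protein-coding mm10 transcripts were sought in the annotated transcripts, of any type, of other genes on either strand. A gene of the related pathways that the same rule would name is not reported here.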

Additional observations from a re-analysis of the deposited data

Results flagged for a closer look

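These results are listed because the TNF response itself differed between constructs in edgeR's quasi-likelihood test, as a difference of log2 changes from RelA-WT. At 1 h the difference for Hk2 was -1.27 in EV and -1.43 in RelA-dTAD cells. At 3 h that for Egln3 was -1.92 in EV cells. At 8 h it was 1.21 for Vegfa, 0.96 for Slc2a1, 0.93 for Hk2, -0.46 for Hk1 and -0.57 for Hif1a in EV cells, and 0.90 for Slc2a1 in RelA-dTAD cells. The difference for Hk2 in EV cells was thus negative at 1 h and positive at 8 h. Each had the same sign in both sets. At 8 h they were 15.6% of the members in EV, where 17.6% of all genes differed, and 3.12% in RelA-dTAD (12.2% of all genes). At 3 h in EV they were 3.12% (3.68% of all genes). At 1 h they were 3.12% in EV and in RelA-dTAD (0.6% of all genes in each). The 1 h tests were added after the data were seen. Each of these calls failed in some fits with a replicate left out, as given above.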

How the results depend on the processing

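No result changed direction under any alternative run. With the replicate number as a block the members called were 9 at 3 h and 25 at 8 h in EV, 1 at 0.5 h, 1 at 1 h, 5 at 3 h and 25 at 8 h in RelA-dTAD, 6, 12 and 21 at 1, 3 and 8 h in RelA-dTA1, and 7, 14 and 18 at 1, 3 and 8 h in RelA-WT cells; before TNF 2 differed in EV, and the response differed at 1 h for 5 in EV, 4 in RelA-dTAD and 1 in RelA-dTA1, at 3 h for 5 in EV and 4 in RelA-dTAD, and at 8 h for 17 in EV and 14 in RelA-dTAD. The block ended none of the 77 named calls, nor did DESeq2's size factors or its Wald test, which called 2 members at 3 h in EV cells. Without the filter on low counts the calls were 1, 2 and 20 at 1, 3 and 8 h in EV, 1 and 3 at 1 and 3 h in RelA-dTAD, 4 at 1 h in RelA-dTA1 and 6 at 1 h in RelA-WT cells; the response differed at 1 h for 5 in EV, 4 in RelA-dTAD and 1 in RelA-dTA1, at 3 h for 2 in EV and 3 in RelA-dTAD, and at 8 h for 6 in RelA-dTAD; 5 named calls were lost, and the cause was not tested. With a 1.5-fold threshold the single-library counts at 8 h were 21 in RelA-DB, 18 in RelA-dCterm, 12 in RelA-TA2_CI, 17 in RelA-TA2_CI-dTA1, 10 in RelA-TA2_S467A, 12 in RelA-TA2_CI_S467A and 14 in RelA-TA2_CI_S467A-dTA1, since a lower threshold admits more. The share of all genes was not counted at this threshold or without the filter, so these counts of members cannot be set against it.

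Leaving out 1 replicate of a construct, which leaves 1 library a time that is assumed to vary like the others, gave 0 to 0 calls at 3 h and 9 to 10 at 8 h in EV, 8 to 11 at 8 h in RelA-dTAD, 1 to 1 at 1 h, 2 to 3 at 3 h and 8 to 9 at 8 h in RelA-dTA1, and 1 to 1, 2 to 4 and 4 to 9 at 1, 3 and 8 h in RelA-WT cells. Response differences came to 0 to 1 at 1 h in EV and RelA-dTAD, 0 to 1 at 3 h in EV, and 0 to 3 in EV and 0 to 2 in RelA-dTAD at 8 h. Of the named calls in these fits 94 held and 78 were lost. The fits with a replicate left out did not use the block, so that differences between the sets entered their spread. The share of all genes was not counted in them. Low counts limit Gapdh, Aldoc and Pfkfb4 most.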
